A study of Homo sapiens with 48 samples.

Results

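The regions described here are the H3K9me3 broad peaks of the pancreatic cancer line ASPC1 that the authors' deposited annotation places at a transcript 3′ end (class TTS) and that lie over no zinc finger gene. A peak was kept when it shared no base with a gene whose symbol is ZNF, a number and at most 1 letter. The rule kept 818 of the 889 TTS peaks, out of 63955 peaks in the list, and left out 71 TTS peaks over zinc finger genes. The series holds 48 samples on ZNF274 in pancreatic ductal adenocarcinoma (PDAC) lines, and its title concerns lineage plasticity and resistance to inhibitors of the kinase CDK7. The peaks come from CUT&RUN, antibody-guided cleavage of chromatin, on ASPC1 cells that carried a control hairpin (shCTRL, 3 samples) or a hairpin against ZNF274 (shZNF274, 3 samples), with both groups kept in 1 µg/ml doxycycline for 9 days. The RNA comes from 12 other ASPC1 libraries, 3 each of cells given a control siRNA (siCTRL), an siRNA against ZNF274 (siZNF274), the solvent DMSO or azacitidine (AZA, 5 µM), a nucleoside that traps DNA methyltransferases.

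H3K9me3 is the trimethylated lysine 9 of histone H3, a mark of silent chromatin that HP1 proteins read and that enzymes such as SETDB1 and SUV39H1 place. KRAB zinc finger proteins bind DNA in a sequence-specific way and bring in SETDB1 through the corepressor TRIM28. ZNF274 is a member of that family best known for binding the 3′ ends of other zinc finger genes, where H3K9me3 covers the last exons while the gene is still transcribed.

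The promoters below are shown because they lie wholly inside these 3′ end peaks although the class names gene ends. They are the 250 bases before the RefSeq start (GRCh38.p14), with every CG dinucleotide, the substrate of the enzymes that azacitidine inhibits, in capitals. The first 3 sit under 1 peak of 41586 bases on chromosome 5 over the gamma protocadherin cluster, and the last sits under a peak of 7311 bases on the X chromosome over a cancer-testis gene. Their positions are chr5:141359886-141360135, chr5:141363912-141364161, chr5:141373641-141373890 and chrX:141002344-141002593, all on the plus strand.
PCDHGB2: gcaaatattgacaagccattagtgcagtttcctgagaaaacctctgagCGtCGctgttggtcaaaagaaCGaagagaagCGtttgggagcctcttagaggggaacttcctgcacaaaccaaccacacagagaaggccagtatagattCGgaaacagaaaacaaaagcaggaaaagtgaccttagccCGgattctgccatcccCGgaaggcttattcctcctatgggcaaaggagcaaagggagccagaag
PCDHGA5: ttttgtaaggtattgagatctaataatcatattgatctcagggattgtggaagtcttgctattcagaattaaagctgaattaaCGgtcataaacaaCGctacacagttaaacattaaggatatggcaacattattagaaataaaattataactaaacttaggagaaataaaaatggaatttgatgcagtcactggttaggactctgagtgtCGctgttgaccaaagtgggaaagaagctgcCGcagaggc
PCDHGA6: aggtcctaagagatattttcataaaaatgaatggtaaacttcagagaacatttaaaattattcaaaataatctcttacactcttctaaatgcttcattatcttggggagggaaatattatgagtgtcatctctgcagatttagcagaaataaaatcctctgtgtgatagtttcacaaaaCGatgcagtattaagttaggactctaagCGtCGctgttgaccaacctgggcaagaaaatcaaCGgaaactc
SPANXB1: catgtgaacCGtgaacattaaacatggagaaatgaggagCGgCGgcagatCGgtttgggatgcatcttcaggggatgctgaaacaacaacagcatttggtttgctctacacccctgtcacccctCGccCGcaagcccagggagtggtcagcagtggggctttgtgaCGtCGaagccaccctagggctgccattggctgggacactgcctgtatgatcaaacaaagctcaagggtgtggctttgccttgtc

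The PCDHGB2, PCDHGA5, PCDHGA6 and SPANXB1 windows hold 7, 4, 4 and 8 CG dinucleotides. Of 35116 RefSeq promoter windows of this length, 61 windows of 52 genes lay wholly inside 34 of the peaks, and they held a median of 4 CG against 11 over all windows. The letters CGCT, the core of the element that clustered protocadherin promoters share, were searched on both strands, where matches may overlap. They were present in 33 of the 61 windows, 54.1%, against 64.8% of all windows. All 12 windows of the 10 protocadherin genes under these peaks held them, with between 4 and 15 CG each. Of the mature miRNAs in the RefSeq table, 1 lay inside one of these peaks, over the end of FBXL7 (chr5:15935191-15935211, plus strand), and it is printed with its seed, bases 2 to 8, in capitals.
hsa-miR-887-5p: cUUGGGAGcccuguuagacuc

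The 818 peaks were narrower than their counterparts at zinc finger genes and were more often called in the shZNF274 cells alone. Their median width was 3181.5 bases, with the middle of the distribution between 1846.25 and 5530.5 bases and extremes of 199 and 205455 bases. The 71 TTS peaks over zinc finger genes had a median of 13106 bases, and all 63955 peaks had a median of 3633 bases. In the authors' deposited table, the 818 peaks comprise 484 called in both groups (59.2%), 112 called in shCTRL only (13.7%) and 222 called in shZNF274 only (27.1%). Over zinc finger genes the same shares were 76.1%, 22.5% and 1.41%, so 1 of those 71 peaks was called in shZNF274 only. Over all peaks they were 64.3%, 13.7% and 22.0%. Peaks of the promoter class (promoter-TSS), those over zinc finger genes included, were close to the 818. Their median width was 3041 bases, and 27.4% were called in shZNF274 only. A wide peak shares a base with a zinc finger gene more easily, and the part of the rule in the widths was not tested.

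Peaks called in both groups had a median width of 4639.5 bases, while peaks called in shCTRL only and in shZNF274 only had medians of 1746 and 1714 bases. No peak called in both was under 1028 bases, whereas 64 of the 818 were under 1000 bases, and 72 were over 10000 bases. Peaks of 1 list are not replicates, and the list gives no value per sample, so these shares and widths are descriptions with no test. The deposited score is 1000 in every peak and ranks none of them.

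**Figure D1:**
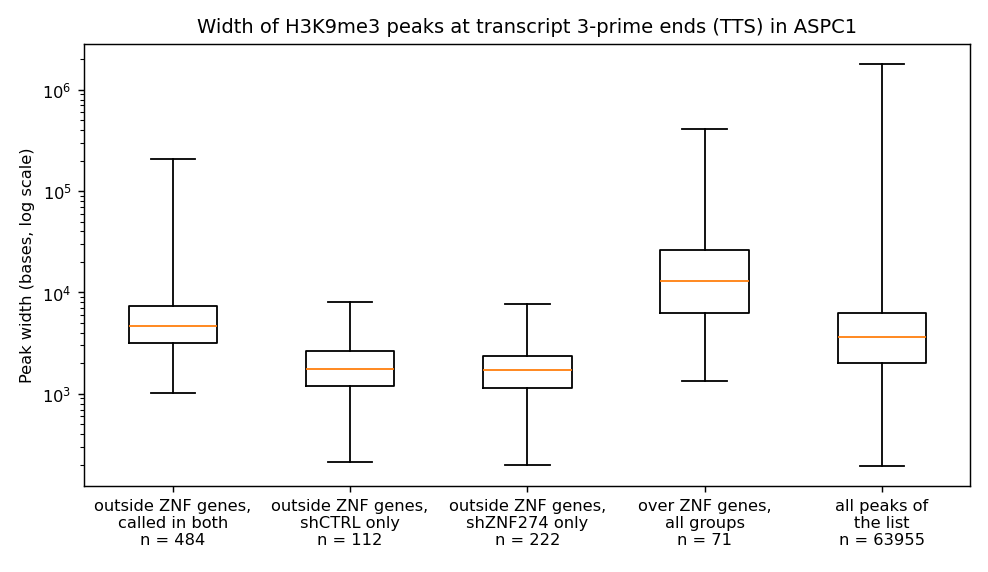
Width of H3K9me3 peaks on a log axis, in bases: boxes span the quartiles with the median as a line, and whiskers reach the narrowest and widest peak. TTS peaks outside zinc finger genes called in both groups (median 4639.5 bases) are wider than those called in 1 group only (1746 and 1714 bases), and those over zinc finger genes are wider still (13106 bases).

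Chromosome 2 held the most of these peaks, 78, followed by chromosome 5 with 68, chromosome 1 with 57, chromosome 11 with 55 and chromosome 7 with 52. Relative to all peaks of a chromosome their share was highest on chromosome 19, the home of most clustered zinc finger genes, at 3.99% of 878 peaks (35 peaks), and lowest on the X chromosome at 0.333%. Only 5 of the 818 peaks had a zinc finger gene within 10000 bases. The closest lay 1022 bases from one, at RP11-488L18.10 on chromosome 1, and the next, over ZKSCAN7, lay 1804 bases away. Just outside the rule, a peak of 2030 bases was left out because it shared 186 bases with ZNF396. The next 4 by shared bases were narrow peaks of 1352 to 2108 bases that lay wholly inside such a gene. The rule's pattern also passes zinc finger genes with other symbols: 8 of the 818 peaks lay over a gene of a further C2H2 series, among them ZFP14, ZFP1 and ZKSCAN7. Another 3 lay over antisense or divergent RNAs named after such a gene, as KLF3-AS1 is.

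The widest peaks lay over silent genes as well as over transcribed ones. The widest, 205455 bases on chromosome 22 (chr22:15689499-15894953), covered POTEH, a cancer-testis gene of the POTE family, with POTEH-AS1, PSLNR and DUXAP8, and POTEH had no count in any of the 12 ASPC1 libraries. DUXAP8, wholly under the same peak, was read at a mean of 1.33 CPM over the 12 libraries. Next came 108498 bases on chromosome 19 over LINC00665 and ZFP14, and 95043 bases on chromosome 7 over 2 lncRNA genes. A peak of 73179 bases on chromosome 5 lay over MAPK9, which encodes the stress kinase JNK2. Peaks covered 84.1% of MAPK9, which was measured at 52.8 to 60.8 CPM (counts per 1000000 counts, with libraries scaled by TMM factors) in siCTRL. ZFP1 and ZFP14, with 92.7% and 91.2% of the gene under peaks, were also transcribed, at means of 12 and 4.04 CPM over the 12 libraries. All 3 genes fall outside the match by 3′ end used below.

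A gene was matched to a peak when the peak's centre lay from 100 bases before to 1000 bases after the gene's 3′ end. That window matched 355 of the 818 peaks to 361 genes, 129 protein-coding and 232 long non-coding (lncRNA). The other 463 peaks had no gene end in the window. Of these, 41 held the 3′ end of a gene with a known strand but were centred elsewhere, as at MAPK9, FBXL7 and ZSCAN20, and 422 held no such end. In all, 803 of the 818 shared at least 1 base with a gene, 447 with a protein-coding gene, and 1001 genes were touched. RefSeq gave the strand of 127 of the 361 genes, and these could be matched only by their 3′ end. No peak was centred in the same window at the 5′ end of a gene with a known strand. The annotation class keeps such peaks out, so this is no check of the ends. For the other 234 the end at the peak was taken as the 3′ end because of the annotation class, and this assignment was not checked by strand.

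Long non-coding RNAs made up most of the matched genes. RNAs named after a genomic library clone numbered 147 (40.7% of the 361, against 29.8% of the genes in the table), a pattern chosen after the data were seen. Among the 1001 genes that shared a base with a peak they made up 28.2%, so the larger share depends on the match. Genes without a known strand could match by either end, and the part of this in the share was not tested. LINC genes numbered 33 (9.14% against 5.78%), antisense, divergent and overlapping transcripts 16 (4.43% against 4.67%) and a second set of clone-named RNAs 18. The other listed families had at most 5 members each. They included 5 olfactory receptors (1.39% of the matched genes, against 1.06% of the table: OR2T1, OR2A5, OR10A4, OR5D3P and OR10H1), 3 SLC transporters, 3 of the further C2H2 symbols (KLF1, KLF3-AS1 and ZNF32-AS3), 3 keratin-associated proteins of the hair shaft (KRTAP2-2, KRTAP29-1 and KRTAP16-1) and 3 cancer-testis genes (SPANXB1, SPANXD and CTAG2). None of the 11 olfactory receptor, keratin-associated and cancer-testis genes exceeded 0.0829 CPM in any of the 12 libraries. SPANXB1, whose promoter is printed above, lay wholly under its peak with 1 count in all, in an AZA library.

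Other pairs at these ends were the semaphorins SEMA3A and SEMA4F, guidance cues that reached 103 and 3.29 CPM, the palmitoyltransferases ZDHHC11 and ZDHHC11B, and the cytochromes CYP2A6 and CYP2A7, which stayed at or below 0.0803 CPM. The last pairs are close paralogs whose reads the counting could have split, so their separate values are uncertain. Of the 361 matched genes, 112 belonged to no listed family, and they held 43 of the genes with a mean of 1 CPM or more.

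The protein-coding genes at these ends were more often silent than protein-coding genes at large, while the shares of lncRNAs with RNA overlapped those of lncRNAs at large. In the 12 ASPC1 libraries 38.0% to 39.5% of the 129 matched protein-coding genes reached 1 CPM, against 57.4% to 58.3% of all protein-coding genes, and the ranges did not overlap. For lncRNAs the ranges were 6.03% to 7.33% of the 232 matched genes and 6.93% to 7.98% of all, which overlap. Over all 361 genes the share ran from 17.5% to 18.6% between libraries, or 63 to 67 genes, in all 4 groups. This low share depends on the match: genes with a known strand whose end lies anywhere inside a peak reached 34.8% on average. Over all genes in the table, with or without a known strand, the range was 34.2% to 35.1%. The like baseline, all genes with a known strand, was not computed. Of the protein-coding genes with a known strand, 9387 had a mean of 1 CPM or more and 5826 did not. These are shares of genes within libraries and carry no test.

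**Figure D2:**
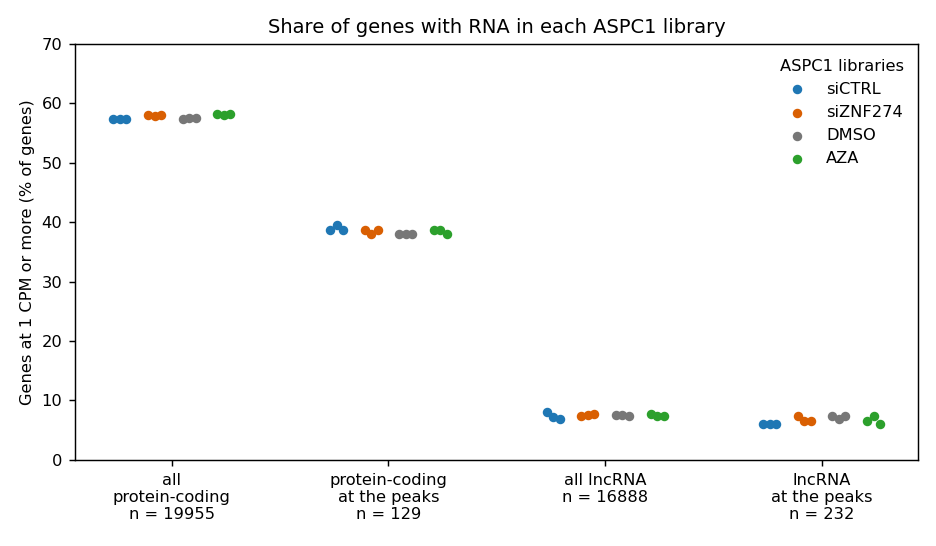
Share of genes at 1 CPM or more, in percent of the genes of each set, with 1 point for each of the 12 ASPC1 libraries coloured by group. The matched protein-coding genes sit between 38.0% and 39.5% in every library, below all protein-coding genes at 57.4% to 58.3%, while the 2 lncRNA sets lie close together.

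Of the 49 matched protein-coding genes with a mean of 1 CPM or more, 0 had their 5′ end under any H3K9me3 peak of the list (40 of them with a known strand), and a median of 8.0% of the gene was under peaks. Of the 80 below 1 CPM, 12 (15%) had their 5′ end under a peak, and the median cover was 15.9%. The genes below 1 CPM are shorter, with a median length of 16667 bases against 55381 bases for the 49, and the part of length in these shares was not tested. Over all protein-coding genes with a known strand, 0.895% of starts lay under a peak at 1 CPM or more and 7.31% below it (84 of 9387 and 426 of 5826 genes), against 0 of 40 and 7 of 54 matched genes with a known strand. Over all protein-coding genes of either level the median cover was 0. The match itself places a peak at the end of each matched gene, so their higher median cover is no finding. Matched lncRNAs below 1 CPM were more covered, at a median of 26.4% of the gene with 51 of 217 starts under a peak (23.5%), and their median length was 9242 bases.

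Among the 10 matched genes with the highest level, the part under peaks differed widely. ERO1A, which encodes an oxidase of the endoplasmic reticulum that forms disulphide bonds (ENSG00000197930.13, hg38, chr14:52639915-52695900), was read at 247, 235 and 225 CPM in siCTRL and had 1.38% of its length under peaks. WDR43, a ribosome biogenesis factor, was read at 144, 144 and 151 CPM with 1.12% under peaks. DHCR7, an enzyme of cholesterol synthesis, had 7.01% under peaks, and LONRF2, at 121 CPM on average, had 15.2%. PEX26, a peroxisome import factor, had no base under a peak, since its peak of 1356 bases began 256 bases beyond the gene's end. The peaks of UTP25, SC5D, ATG2B and SHC2 also began beyond the end, by 258, 140, 524 and 110 bases. At the other extreme GLIPR1L2 had a peak of 26352 bases that reached 12560 bases into the gene.

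**Figure D3:**
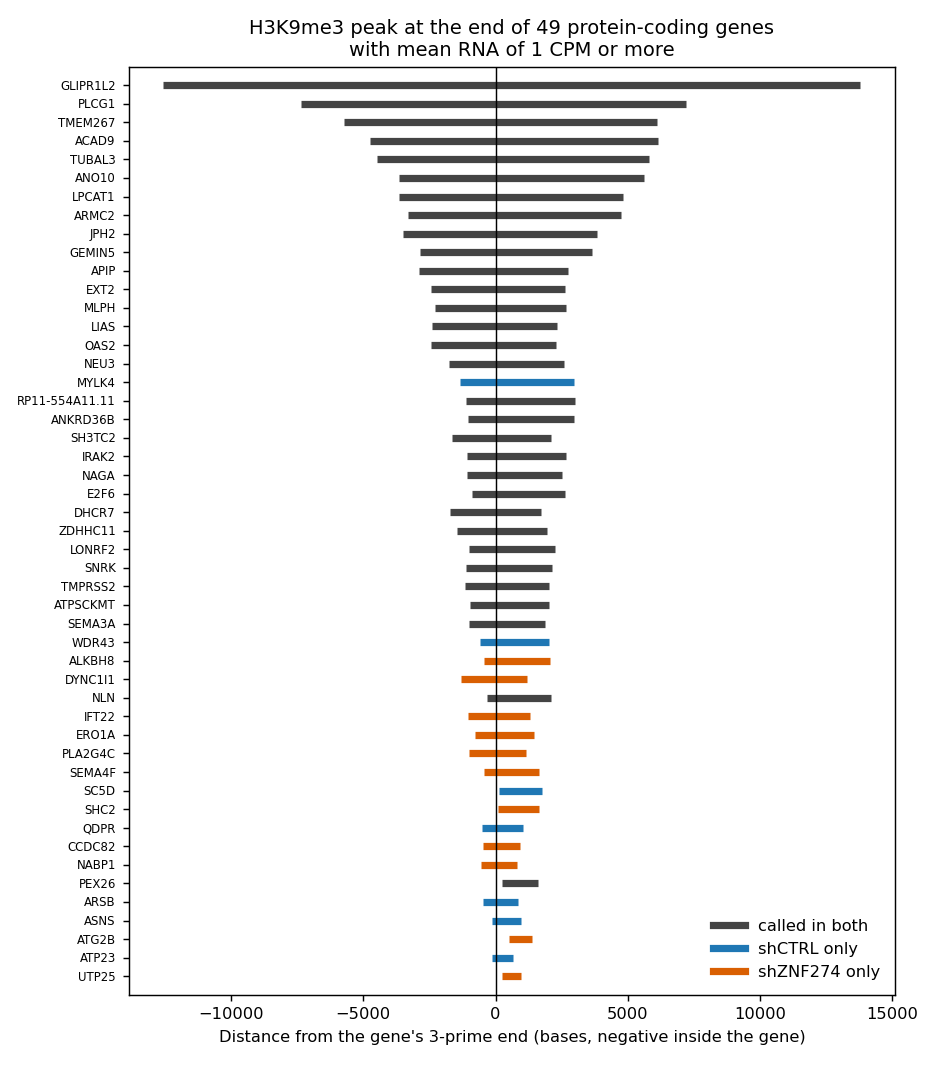
Extent of the H3K9me3 peak around the 3′ end of the 49 matched protein-coding genes with a mean of 1 CPM or more, in bases from the end (negative inside the gene), ordered by width and coloured by the groups in which the peak was called. Widths run from 706 bases at UTP25 to 26352 bases at GLIPR1L2, and the class itself requires the centre to lie near the end, so the centring is no finding.

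The siRNA's target showed no decrease of its RNA. ZNF274 was read at 15.8, 16.3 and 20.6 CPM in siCTRL and at 16.6, 19.2 and 22.4 CPM in siZNF274, groups that overlap, with a log2 fold change of 0.15 and an adjusted p of 0.305 in edgeR's quasi-likelihood test. Without siCTRL replicate 3 the log2 fold change was 0.28 with an adjusted p of 0.0445. Effects below are therefore those of the libraries so labelled. Total counts ran from 31415743 to 39893151 per library. The 6 epithelial markers (EPCAM, CDH1, KRT7, KRT8, KRT18, KRT19) were all present, but their summed level was 6805 to 7511 CPM in siZNF274 against 9646 to 10922 CPM in siCTRL, and 9147 to 9431 CPM in AZA against 13407 to 15015 CPM in DMSO. Acinar markers summed to at most 0.114 CPM, with CPA1 and PNLIP at 0, and leukocyte markers, mostly CD14, to 0.819 to 0.954 CPM in siCTRL and 0.990 to 1.27 CPM in siZNF274, and to 0.793 to 1.38 CPM in DMSO and 1.40 to 1.74 CPM in AZA. Fibroblast markers summed to 116 to 128 CPM in siCTRL, 134 to 145 CPM in siZNF274, 102 to 113 CPM in DMSO and 97.2 to 107 CPM in AZA, of which LUM alone gave 96.0 to 144 CPM while COL1A1 stayed at or under 0.722 CPM. Endothelial markers summed to 0.521 to 0.884 CPM in siCTRL and 1.05 to 1.34 CPM in siZNF274, and to 0.400 to 0.563 CPM in DMSO and 0.723 to 1.40 CPM in AZA, with CDH5 at or under 0.0276 CPM. The fibroblast, endothelial and leukocyte sums did not overlap between siCTRL and siZNF274, nor the endothelial and leukocyte sums between DMSO and AZA. The part of these shifts in the results below was not tested, and in bulk RNA fewer cells with a transcript and less transcript per cell cannot be told apart.

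Of the 361 matched genes, 95 had enough counts to be tested, and 25 were higher and 22 lower in siZNF274 than in siCTRL (edgeR's quasi-likelihood test, Benjamini-Hochberg adjusted p under 0.05 over 16186 genes). These are 26.3% and 23.2% of the tested members, against 21.5% and 24.2% of all tested genes (45.7% in either direction), so the members were called about as often as genes in general. Their median log2 fold change was -0.05, and 9 of the higher and 4 of the lower genes changed at least 2-fold. The share of all tested genes that changed 2-fold was not computed, so no skew of the members can be read from these counts. By the groups in which the peak was called, 14 were higher and 15 lower of 61 tested genes at peaks of both groups. The counts were 4 higher and 6 lower of 14 at peaks of shCTRL only, and 7 higher and 1 lower of 20 at peaks of shZNF274 only. No test of the difference between these peak groups was made.

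SHC2, a signalling adaptor of receptor tyrosine kinases (ENSG00000129946.11, chr19:416589-461033), rose most among them. It was read at 2.66, 2.76 and 4.65 CPM in siCTRL and at 17.0, 15.2 and 17.7 CPM in siZNF274. The siZNF274 libraries all lay above the siCTRL libraries, a 5.01-fold difference (95% interval 4.0 to 6.28, log2 2.33 ± 0.15 SE, adjusted p = 7.74e-09, edgeR). Its peak, chr19:414931-416479, was called in shZNF274 only, but the authors' deposited table has it as neither Up nor Down. That holds for 221 of the 222 peaks called in shZNF274 only, the peak of PLA2G4C included. PLA2G4C, a cytosolic phospholipase A2 whose end also carries a peak called in shZNF274 only (chr19:48046705-48048846), was read at 1.07, 1.29 and 1.18 CPM in siCTRL and 3.26, 2.93 and 3.87 CPM in siZNF274, and rose 2.84-fold (adjusted p = 4.30e-06, edgeR).

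MLPH, which encodes melanophilin, a linker of vesicles to myosin, stood at a peak called in both groups (chr2:237553028-237557974). Its values were 13.9, 14.0 and 18.2 CPM in siCTRL and 32.1, 33.2 and 38.4 CPM in siZNF274, without overlap, and it rose 2.25-fold (adjusted p = 1.30e-07, edgeR). ZDHHC11 rose 2.34-fold (adjusted p = 1.94e-07, edgeR), from 6.59 ± 1.17 to 15.4 ± 1.11 CPM (SD, n = 3). The other genes named by size that rose were the lncRNAs RP11-345F18.2 (log2 1.93) and RP11-281P23.1 (log2 1.35), the potassium channel gene KCNJ5 (log2 1.23) and TICAM2, an adaptor of Toll-like receptor 4 (log2 1.03). KCNJ5, RP11-281P23.1 and TICAM2 were all below 1 CPM. KCNJ5 lost its call with DESeq2 (adjusted p = 0.0631) and without siZNF274 replicate 2 (0.0911). RP11-281P23.1 lost it without siCTRL replicate 1 (0.0781) or siZNF274 replicate 3 (0.0648), and TICAM2 without siCTRL replicate 1 (0.0651, all edgeR).

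IYD, the deiodinase that recycles iodide from iodotyrosines, fell most (peak chr6:150403921-150407916, both groups). It had 28 counts over the 3 siCTRL libraries, at 0.261, 0.232 and 0.328 CPM, and 2 counts over the 3 siZNF274 libraries, of which 2 libraries had none. The fitted fold was 0.0820 (95% interval 0.0276 to 0.243, adjusted p = 0.000861, edgeR), at a level where the counts limit the size. TMPRSS2, a transmembrane serine protease of epithelia (peak chr21:41462272-41465448, both groups), was read at 4.23, 4.23 and 4.13 CPM in siCTRL and 2.7, 2.26 and 1.63 CPM in siZNF274. Its groups did not overlap, and it fell 1.91-fold (adjusted p = 0.00104, edgeR).

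ATP10B, a lysosomal lipid flippase, fell by 1.45 on the log2 scale, and CCR9, a chemokine receptor, by 1.25. PRSS41, a serine protease, fell by 1.68, and its call was lost without siCTRL replicate 2 (adjusted p = 0.0706), siCTRL replicate 3 (0.0505) or siZNF274 replicate 2 (0.0871, edgeR). QDPR, which regenerates tetrahydrobiopterin, was read at 8.57, 9.54 and 9.73 CPM in siCTRL and 5.38, 5.89 and 5.64 CPM in siZNF274 and fell 1.65-fold (adjusted p = 1.84e-05, edgeR). The lncRNA RP11-115J16.1 and ARMC2, an axonemal assembly gene, completed the 8 largest decreases, at log2 fold changes of -0.99 and -0.85.

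DHCR7, LPCAT1 and SC5D, which are named for the size of their change in AZA, are set side by side here after their values were seen. DHCR7 and SC5D encode enzymes of the last steps of cholesterol synthesis, and LPCAT1 encodes an acyltransferase that remodels phosphatidylcholine. DHCR7 was read at 179, 206 and 174 CPM in siCTRL and 272, 254 and 244 CPM in siZNF274, and rose 1.38-fold (adjusted p = 0.000109, edgeR). LPCAT1 was read at 83.5, 89.7 and 76.4 CPM in siCTRL and 154, 144 and 149 CPM in siZNF274, and rose 1.79-fold (adjusted p = 1.47e-08, edgeR). SC5D rose 1.32-fold, from 78.5 ± 8.78 to 103 ± 0.56 CPM (adjusted p = 0.000381, edgeR). In each of the 3 genes all siZNF274 libraries lay above all siCTRL libraries.

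In AZA against DMSO, the 95 tested genes gave 13 higher and 21 lower (edgeR's quasi-likelihood test, adjusted p under 0.05). These are 13.7% and 22.1%, against 17.2% and 18.6% of all tested genes (35.8% in either direction), with a median log2 fold change of 0.00. By at least 2-fold, 3 were higher and 8 lower, again without a computed share of all tested genes. Of the 95 genes, 61 were not called in cells given the DNA methyltransferase inhibitor, about the share among all tested genes. Another 266 of the 361 were too low to test. By the groups of the peak, 8 were higher and 15 lower at peaks of both, 2 and 1 at peaks of shCTRL only, and 3 and 5 at peaks of shZNF274 only.

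DHCR7, LPCAT1 and SC5D fell in AZA. DHCR7 was read at 172, 169 and 185 CPM in DMSO and 66.0, 81.3 and 74.7 CPM in AZA, and fell 2.37-fold (adjusted p = 6.61e-09, edgeR). LPCAT1 was read at 89.9, 91.6 and 84.1 CPM in DMSO and 41.6, 44.7 and 44.7 CPM in AZA, and fell 2.03-fold (adjusted p = 3.89e-09, edgeR). SC5D was read at 83.0, 70.8 and 71.1 CPM in DMSO and 37.3, 37.9 and 35.7 CPM in AZA, and fell 2.03-fold (adjusted p = 4.76e-08, edgeR). None of the 3 had overlapping groups.

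MLPH rose 2.82-fold in AZA, from 12.3, 12.2 and 12.1 to 37.3, 31.6 and 34.7 CPM (adjusted p = 1.49e-08, edgeR), and SHC2 rose 1.87-fold, from 3.13 ± 0.15 to 5.85 ± 0.56 CPM (adjusted p = 0.000404, edgeR). TICAM2 rose by log2 1.99 at levels under 1 CPM, from 20 counts over the 3 DMSO libraries to 80 over the 3 AZA libraries. ZDHHC11B rose 2.06-fold (adjusted p = 0.00123, edgeR), and its paralog ZDHHC11 by log2 0.32, a call that was lost without AZA replicate 1 (adjusted p = 0.0682), AZA replicate 3 (0.0916), DMSO replicate 1 (0.0830) or DMSO replicate 3 (0.0596, edgeR). IRAK2, a kinase of interleukin-1 signalling, EXT2, a heparan sulphate polymerase, and E2F6, a repressor of the E2F family, rose by log2 0.48, 0.38 and 0.33.

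IYD fell in AZA as well, from 42 counts over the 3 DMSO libraries to 2 over the 3 AZA libraries. TMPRSS2 fell 2.73-fold, from 3.20, 4.0 and 2.85 to 1.09, 1.61 and 0.955 CPM (adjusted p = 6.29e-05, edgeR), and ATP10B fell 3.51-fold (adjusted p = 0.000569, edgeR). SEMA3A, a secreted guidance cue, fell 1.58-fold, from 93.3 ± 7.39 to 59.2 ± 5.27 CPM (adjusted p = 3.03e-06, edgeR). ERO1A was read at 240, 228 and 216 CPM in DMSO and 151, 152 and 150 CPM in AZA, and fell 1.51-fold (adjusted p = 1.13e-07, edgeR). The lncRNA GS1-204I12.4, at 0.194 CPM on average, had a decrease that rested on single libraries: its log2 fold change of -1.74 lost the call with DESeq2 (adjusted p = 0.0618) and when any of AZA replicates 1, 2 and 3 or DMSO replicates 2 and 3 was left out (0.0783 to 0.191, edgeR).

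**Figure D4:**
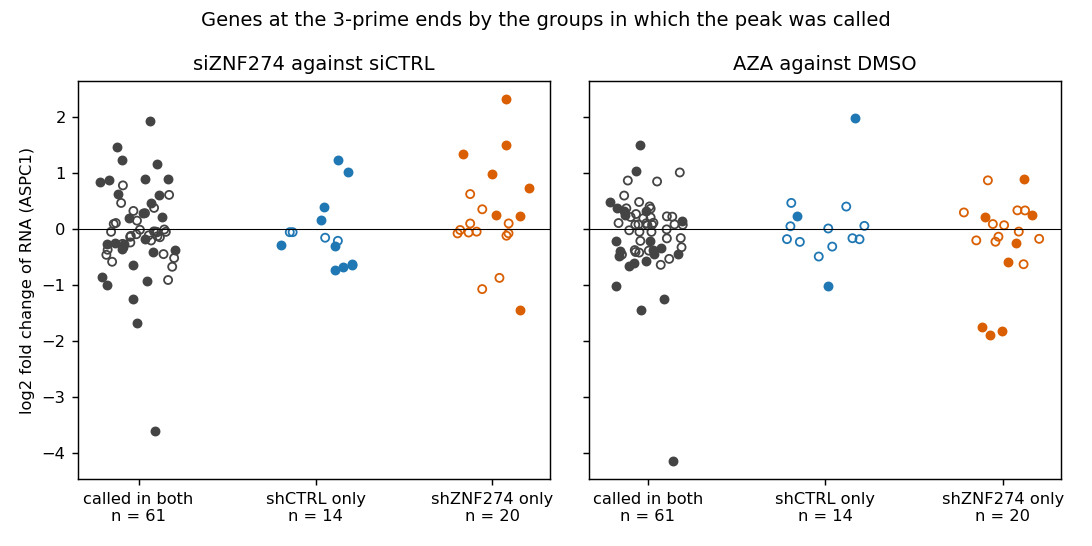
Log2 fold change of the 95 tested matched genes in siZNF274 against siCTRL (left) and AZA against DMSO (right), grouped by where the peak was called, with filled points for genes called at an adjusted p under 0.05 in edgeR's test. In siZNF274, 14 were higher and 15 lower of 61 at peaks of both groups. The counts were 4 and 6 of 14 at peaks of shCTRL only, and 7 and 1 of 20 at peaks of shZNF274 only. In AZA they were 8 and 15, 2 and 1, and 3 and 5. Of all tested genes, 21.5% were higher and 24.2% lower in siZNF274, and 17.2% and 18.6% in AZA. The difference between the peak groups was not tested.

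In the authors' deposited table, 15 of the 818 peaks are called Down in shZNF274 against shCTRL, 1.83%, and 1 is called Up. Over zinc finger genes the authors' deposited table has 18 of 71 Down, 25.4%, and over all peaks 409, 0.640%. Of the 15 Down peaks in the authors' deposited table, 9 were called in shCTRL only and 6 in both groups, and the Up peak, over SPATA22, was called in shZNF274 only. The widest Down peak in the authors' deposited table (27997 bases, chr1:247173042-247201038) is also the one 1022 bases from a zinc finger gene, and the gene under it, RP11-488L18.10, rose in siZNF274 (log2 0.63, adjusted p = 0.00263, edgeR). The other Down peaks of the authors' deposited table lay over or at the ends of KIAA1614, LINC02028, RP11-647P12.1, PGGT1B, 4 gamma protocadherins, MYLK4, ARMC2, PIK3AP1, TTC17, SC5D, ACRBP, RSPRY1, TBX4 and KRBOX4. KRBOX4 is itself a KRAB domain gene, on the X chromosome.

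The peaks and the RNA came from different perturbations, an induced hairpin and an siRNA, so the values stand side by side only. Of the 20 genes over or at the peaks called Down in the authors' deposited table, 18 were tested, and 3 rose and 5 fell in siZNF274 while 0 rose and 5 fell in AZA (edgeR, adjusted p under 0.05). The shares are 16.7% and 27.8% in siZNF274, near the 21.5% and 24.2% of all tested genes, and 0% and 27.8% in AZA against 17.2% and 18.6%. PIK3AP1, which couples receptors to phosphoinositide 3-kinase, moved most. It was read at 76.8, 72.2 and 63.4 CPM in siCTRL and 19.9, 20.9 and 18.7 CPM in siZNF274, and fell 3.57-fold (adjusted p = 7.56e-11, edgeR). In DMSO it was read at 48.7, 52.7 and 52.4 CPM and in AZA at 22.7, 19.8 and 23.1 CPM, and fell 2.34-fold (adjusted p = 7.87e-09, edgeR). Neither pair of groups overlapped. Its peak of 4349 bases (chr10:96592037-96596385) holds the end of the gene, of which 2.41% lies under peaks.

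PGGT1B, a subunit of the enzyme that attaches geranylgeranyl lipids to proteins, fell 1.25-fold in siZNF274 (57.2 ± 0.97 to 45.8 ± 1.24 CPM, adjusted p = 5.32e-05, edgeR) and 1.19-fold in AZA (adjusted p = 0.000689, edgeR). RSPRY1 fell 1.16-fold in siZNF274 (adjusted p = 0.00364, edgeR). Its 1.13-fold decrease in AZA lost the call with upper quartile factors (adjusted p = 0.0538, edgeR) and without DMSO replicate 1 (0.0790) or 2 (0.0659) or AZA replicate 1 (0.0590) or 3 (0.0552). ARMC2 was read at 1.07, 1.5 and 1.24 CPM in siCTRL and 0.749, 0.765 and 0.608 CPM in siZNF274 and fell 1.80-fold (adjusted p = 0.00360, edgeR). ACRBP, a sperm acrosome gene at 0.244 CPM in siCTRL, rose by log2 1.10 in siZNF274, and this call was lost with DESeq2 (adjusted p = 0.0639), with no filter on low counts (0.0630), without siCTRL replicate 2 (0.0925) and without siZNF274 replicate 1 (0.0739). TTC17 (137 ± 7.37 CPM in siCTRL, 138 ± 2.36 CPM in siZNF274), MYLK4 (3.13 ± 0.30 and 3.01 ± 0.10 CPM), KRBOX4 (5.74 ± 0.48 and 5.25 ± 0.10 CPM) and TBX4 (3.43 ± 0.25 and 2.86 ± 0.16 CPM) were not called.

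The clustered protocadherins are neuronal adhesion proteins that each cell expresses in a small random choice. They were the largest listed protein-coding family touched: 20 of the 53 in the table shared bases with 4 of these peaks on chromosome 5. The match by 3′ end held 0 of them. The gamma genes overlap each other, with 7.40% to 53.2% of each under peaks. The peak chr5:141418064-141435220 touched every gamma gene among the 20, so the count of the family rests largely on 1 peak. The peak of 41586 bases touched 13 of them. In the gamma cluster, which holds all of the 20 but PCDHB5, the variable first exons join common last exons. Reads of the shared exons cannot be assigned to 1 gene. PCDHB5, a beta protocadherin, lay wholly under a peak of its own (chr5:141132564-141139631). Of 19 tested, 4 rose and 2 fell in siZNF274, and 0 rose and 3 fell in AZA (edgeR, adjusted p under 0.05). These are 21.1% and 10.5%, against 21.5% and 24.2% of all tested genes, and 0% and 15.8%, against 17.2% and 18.6%. PCDHGB2, whose promoter is printed above, was the most read of them, at 22.9, 23.7 and 23.7 CPM in siCTRL and 16.4, 16.6 and 17.2 CPM in siZNF274, and fell 1.40-fold (adjusted p = 3.23e-05, edgeR). In AZA it was read at 12.8, 11.0 and 13.4 CPM against 21.4, 21.0 and 20.6 CPM in DMSO, and fell 1.69-fold (adjusted p = 5.12e-07, edgeR).

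PCDHGA5, the next promoter under the same peak, was read at 2.20, 2.55 and 2.82 CPM in siCTRL and 3.48, 3.82 and 4.42 CPM in siZNF274, and rose 1.55-fold (adjusted p = 0.00278, edgeR). Neighbours under 1 peak thus included a gene that fell and a gene that rose in siZNF274. PCDHGB1, touched by the peak called Down in the authors' deposited table (chr5:141352143-141354552, 2410 bases), fell by 0.90 on the log2 scale in siZNF274 and by 0.86 in AZA. PCDHGA4 fell by 0.84 on the log2 scale in AZA. PCDHGA12 rose by log2 0.93 in siZNF274, and PCDHGB4 and PCDHGA8 by 0.81 and 0.66. The last 2 calls were lost when some libraries were left out, with adjusted p up to 0.164 for PCDHGB4 and 0.127 for PCDHGA8 (edgeR), and PCDHGB4 also with DESeq2 (0.0573).

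Among lncRNA genes at these ends, LINC00963 was the most read of the LINC genes, at 31.9 CPM on average, and was called in neither comparison. LINC00939, LINC00920 and LINC02614 rose in siZNF274, by log2 0.62, 0.89 and 0.90, and 0 of the 8 tested LINC genes fell. These are 37.5% and 0%, against 21.5% and 24.2% of all tested genes, and 8 genes are too few to read a direction. The call of LINC02614 was lost without siZNF274 replicate 1 (adjusted p = 0.0587, edgeR). In AZA 0 of the 8 rose and 1 fell (12.5%, against 18.6% of all tested genes), LINC01569, by 0.38 on the log2 scale. Over all 36 tested lncRNA genes, 8 rose and 3 fell in siZNF274, and 1 rose and 4 fell in AZA (edgeR, adjusted p under 0.05). These are 22.2% and 8.33% against 21.5% and 24.2% of all tested genes, and 2.78% and 11.1% against 17.2% and 18.6%. The single increase in AZA was MIR4435-2HG, the host gene of a miRNA, by log2 0.22.

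The 26 genes listed as writers, readers, erasers and partners of H3K9me3 and DNA methylation were all tested. In siZNF274, 3 rose (DNMT3A, CBX3 and KDM4B) and 6 fell (KDM4A, ATF7IP, PPHLN1, CBX5, SETDB2 and DNMT1). These are 11.5% and 23.1%, against 21.5% and 24.2% of all tested genes. In AZA, 5 rose (CBX5, UHRF1, DNMT1, ZNF274 and TRIM28) and 2 fell (KDM4A and SETDB2), 19.2% and 7.69% against 17.2% and 18.6%. UHRF1, which guides the maintenance methyltransferase to newly copied DNA, changed most of those in AZA, from 51.8 ± 2.50 to 84.3 ± 4.55 CPM. ZNF274 itself rose 1.40-fold in AZA, from 13.7 ± 1.18 to 19.2 ± 0.80 CPM (adjusted p = 0.00317, edgeR).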

How the data were processed

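The members, gene families and lists were chosen with earlier results of these data known. The authors deposited whole-number read counts per gene for the RNA libraries, without normalization, and 1 list of H3K9me3 broad peaks with a position, a score, the groups of calling, an annotation class and a call of change. For RNA, the tools listed in the submitters' processing notes are FastQC and STAR 2.7.10b, with the build hg38. For CUT&RUN the notes list MACS2, Bowtie2 and HOMER, with Trim Galore, DRAGEN, SAMtools, featureCounts (Subread), bedtools and edgeR, without versions. Not given in the sources used here: how RNA reads were counted, with which strand setting, and whether peak calls pooled samples. Counts of genes that overlap an antisense partner are uncertain.

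The 12 ASPC1 libraries were fitted together in R 4.3.3 with edgeR 4.0.16 (filterByExpr, TMM factors, quasi-likelihood test, Benjamini-Hochberg adjustment at 0.05), after a test on simulated data. CPM are not adjusted for length. Fold changes compare levels within a gene, while rankings by level and shares at 1 CPM or more set genes against each other and also depend on length. Intervals are at 95%. The labels do not say that replicates were separate cultures, although the series' design text calls them biological, so the p-values only measure how these samples vary. None of the 12 within-group pairs were identical. Named were, in each comparison, the 8 called genes with the largest change each way whose groups do not overlap, the 10 with the highest level, the genes at the 10 widest peaks and at peaks called Up or Down, families of at least 5, and ZNF274. Other genes in the text were chosen after their values were seen. Alternatives were DESeq2 1.42.0, upper quartile factors, no filter, the 6 libraries compared, a replicate block, each library left out, and other ways of matching genes to peaks. CFPAC1 and Panc3.27 were not used here.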

Additional observations from a re-analysis of the deposited data

How the results depend on the processing

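Matching every gene that shares a base with a peak gave 369 tested genes in place of 95, with 76 higher and 71 lower in siZNF274 (20.6% and 19.2% of those tested) and 51 and 75 in AZA (13.8% and 20.3%). With only peaks called in both groups, 14 were higher in siZNF274 and 8 in AZA. Leaving out each library in turn gave 20 to 23 higher and 19 to 23 lower in siZNF274, and 9 to 13 and 17 to 19 in AZA. Among peaks at least 1000 bases wide, 64.2% were called in both groups and 23.7% in shZNF274 only. The median width of peaks called in both was 4639.5 bases. The mean share of genes at 1 CPM or more was 18% of the 361. It became 34.8% for genes with a known strand whose end lies inside the peak, and 28.6% at a minimum of 0.1 CPM. The cause of these shifts, beyond the changed sets, was not tested.

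Correlations of deviations from the group mean were weak and positive for same-numbered replicates. They were 0.0486 to 0.147 for siZNF274 with siCTRL and 0.0179 to 0.207 for AZA with DMSO. Differently numbered replicates gave -0.183 to 0.0657 and -0.244 to 0.122. Whether the numbers pair the samples cannot be told from these values. With the number as a replicate block, 25 were higher and 22 lower in siZNF274, and 14 and 21 in AZA. None of the named genes' called changes turned direction in the alternatives run, and 61 of their alternative values fell short of the threshold. Directions were followed for called genes only, a limit set after the values were seen: of 65 comparisons of named genes that were not called, 23 changed sign in at least 1 alternative and 7 were called in at least 1. Genes under 1 CPM rest on few counts, so the size of their change is the least precise.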
